A study of Mus musculus with 8 samples.

Results

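Among 22292 WFS1 binding regions of wildtype C2C12 myoblasts, 928 were centred within 1 kb of the 5′ end of a protein-coding gene whose surroundings are poor in CpG dinucleotides. A start was counted as CpG-poor when the 500 bp to either side had a GC content below 55% or a CpG observed/expected ratio below 0.6. This ratio divides the number of CpG dinucleotides by the number that the C and G content would give. The rule used the genome sequence and the positions of the peaks on the 19 autosomes, which hold 22020 of the 22292 regions. The 928 peaks lay at 824 of 12572 CpG-poor starts, or 6.55% (95% Wilson interval, 6.13 to 7.0). For comparison, 1879 peaks lay at CpG-rich starts, 3945 at 1 to 10 kb from the nearest start and 15268 farther than 10 kb away.

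WFS1 was immunoprecipitated from proliferating, wildtype C2C12 cells, a mouse myoblast line, after crosslinking with DSG and formaldehyde. The chromatin was sonicated for 30 cycles, and a part of the immunoprecipitated material for 6 further cycles, which gave a 30-cycle and a 36-cycle list of peaks. Both lists come from 1 immunoprecipitation and each has 1 library, so they are not replicates, nothing could be tested between conditions, and intervals cover counting error only. The lists give positions without heights, the depth behind them is unknown, and the identity of the cells could not be checked from positions alone.

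WFS1, or wolframin, is known as a membrane protein of the endoplasmic reticulum, and the study examined its contact with chromatin at the inner nuclear membrane. In mammals, CpG-rich promoters are typical of housekeeping and developmental genes. CpG-poor promoters, which lack a CpG island, are typical of genes used in few tissues, such as those of contractile proteins, digestive enzymes, keratins and odorant receptors.

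The sequences under 8 of these peaks are given first, since they show the letters that the counts of motifs rest on. Each is the central 200 bp of a peak, read from the RefSeq copy of the GRCm38 genome on the strand of the gene, and none touches an exon of a protein-coding gene. Capitals mark matches, on either strand, to TGACTCA (bound by AP-1 factors), CAGCTG (an E-box bound by MyoD family factors), TGTGGT (RUNX), GGAATG (TEAD), TATAAA (the TATA box) and the MEF2 and CArG sites. The first 4 peaks hold both an AP-1 and an E-box match. They belong to Chrna1, the acetylcholine receptor subunit of muscle at chr2:73580363-73580562 (minus strand), and Stac3, a protein of excitation-contraction coupling at chr10:127500941-127501140 (plus strand). The other two are Fcgr4, an antibody receptor of myeloid cells at chr1:171019667-171019866 (plus strand), and Sprr1a, a protein of the cornified envelope at chr3:92485990-92486189 (minus strand).
Chrna1: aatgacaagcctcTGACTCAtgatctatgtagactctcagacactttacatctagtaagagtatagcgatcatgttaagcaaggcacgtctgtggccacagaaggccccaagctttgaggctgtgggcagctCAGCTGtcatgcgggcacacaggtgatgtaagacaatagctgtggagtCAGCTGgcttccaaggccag
Stac3: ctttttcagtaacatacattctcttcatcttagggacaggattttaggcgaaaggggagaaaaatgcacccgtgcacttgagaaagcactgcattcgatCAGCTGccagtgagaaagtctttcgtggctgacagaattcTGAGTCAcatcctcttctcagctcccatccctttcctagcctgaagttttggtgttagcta
Fcgr4: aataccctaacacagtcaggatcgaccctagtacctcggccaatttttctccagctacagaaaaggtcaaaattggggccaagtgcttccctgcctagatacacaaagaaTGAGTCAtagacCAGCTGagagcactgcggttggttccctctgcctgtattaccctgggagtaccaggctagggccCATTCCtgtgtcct
Sprr1a: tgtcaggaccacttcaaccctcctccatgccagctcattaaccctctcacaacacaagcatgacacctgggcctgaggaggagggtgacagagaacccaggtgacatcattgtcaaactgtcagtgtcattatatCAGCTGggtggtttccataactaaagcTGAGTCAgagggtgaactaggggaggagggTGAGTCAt

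The next 4 show wide peaks of both lists and the peak of an immune cell gene. One lies upstream of Gzmb, a protease of cytotoxic lymphocytes, at chr14:56262385-56262584 (minus strand). The others lie upstream of Lmna, which encodes lamins A and C, at chr3:88510658-88510857 (minus strand), of Ang2, a secreted ribonuclease, at chr14:51199832-51200031 (minus strand), and of Angpt1, a ligand of the Tie2 receptor, at chr15:42677201-42677400 (minus strand).
Gzmb: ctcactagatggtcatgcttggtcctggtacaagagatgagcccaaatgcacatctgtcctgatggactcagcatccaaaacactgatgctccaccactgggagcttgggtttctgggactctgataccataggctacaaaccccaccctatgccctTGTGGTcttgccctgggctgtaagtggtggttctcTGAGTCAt
Lmna: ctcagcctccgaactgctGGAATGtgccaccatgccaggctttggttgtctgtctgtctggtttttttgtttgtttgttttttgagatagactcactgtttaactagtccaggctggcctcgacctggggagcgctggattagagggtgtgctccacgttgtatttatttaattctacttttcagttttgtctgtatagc
Ang2: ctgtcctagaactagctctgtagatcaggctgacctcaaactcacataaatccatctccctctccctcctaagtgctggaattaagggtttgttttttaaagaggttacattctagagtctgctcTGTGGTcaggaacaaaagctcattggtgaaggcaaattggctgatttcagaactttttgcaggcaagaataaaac
Angpt1: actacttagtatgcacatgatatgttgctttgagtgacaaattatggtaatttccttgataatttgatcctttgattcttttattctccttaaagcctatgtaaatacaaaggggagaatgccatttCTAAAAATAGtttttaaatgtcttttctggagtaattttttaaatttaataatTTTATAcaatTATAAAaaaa

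A CpG-poor start carried a WFS1 peak less often than a CpG-rich start. Of 8235 CpG-rich starts, 1642 had a peak, or 19.9% (19.1 to 20.8). The difference of -13.4 percentage points (95% Newcombe interval, -14.4 to -12.4) was larger than the counting error. CpG-poor starts were themselves not uniform. Those low in both GC and CpG had a peak in 313 of 8732 cases, or 3.58% (3.21 to 4.0). Starts low in CpG alone had one in 212 of 2253 cases, or 9.41% (8.27 to 10.7). Starts low in GC alone, with a CpG ratio of 0.6 or more, had one in 299 of 1587 cases, or 18.8% (17 to 20.8), which lies within counting error of the share at CpG-rich starts. The 928 peaks were divided among these classes as 354, 248 and 326. The share of starts with a peak thus rose with CpG content, and the class of low GC alone stood close to the CpG-rich starts.

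Within starts of GC below 55%, the share with a peak was 0.786% (0.460 to 1.34) at a CpG ratio under 0.1 and 10.6% (8.41 to 13.2) between 0.5 and 0.6. It reached 15.9% (13.4 to 18.8) between 0.6 and 0.7. At the same CpG ratio of 0.5 to 0.6, starts of GC at or above 55% had a peak in 12.3% (10.4 to 14.6), with an overlapping interval. Between 0.1 and 0.2 the intervals did not overlap, with 1.93% (1.48 to 2.51) in the low GC group and 5.88% (3.47 to 9.80) in the other. Below 0.1 the group of higher GC had only 26 starts, none with a peak (0 to 12.9%). Among starts with a ratio below 0.6, the share also rose with GC, from 0.696% (0.407 to 1.19) below 40% GC to 10.6% (8.17 to 13.7) between 60 and 65%. CpG-poor starts with a peak had a median GC content of 52.7% and a median CpG ratio of 0.54, against 49.4% and 0.26 for the 11748 without one. Just inside the GC threshold were Rdh14, Zfp369 and Vpreb1 at 54.95%, and just outside Asns, Tmod3 and Gmfb at 55.04%. Just inside the CpG threshold were Gm21988, Zfp62 and Zfp963 with ratios of 0.5980 to 0.5996, and just outside Gpr155, Cavin1 and Zyx with 0.6007 to 0.6015. Just inside the limit of distance were Sirt6 at 989 bp and Sfrp4 and Thbs1 at 994 bp, and just outside Gm3776 at 1006 bp and Eppk1 and Sh2b3 at 1007 bp.

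**Figure D1:**
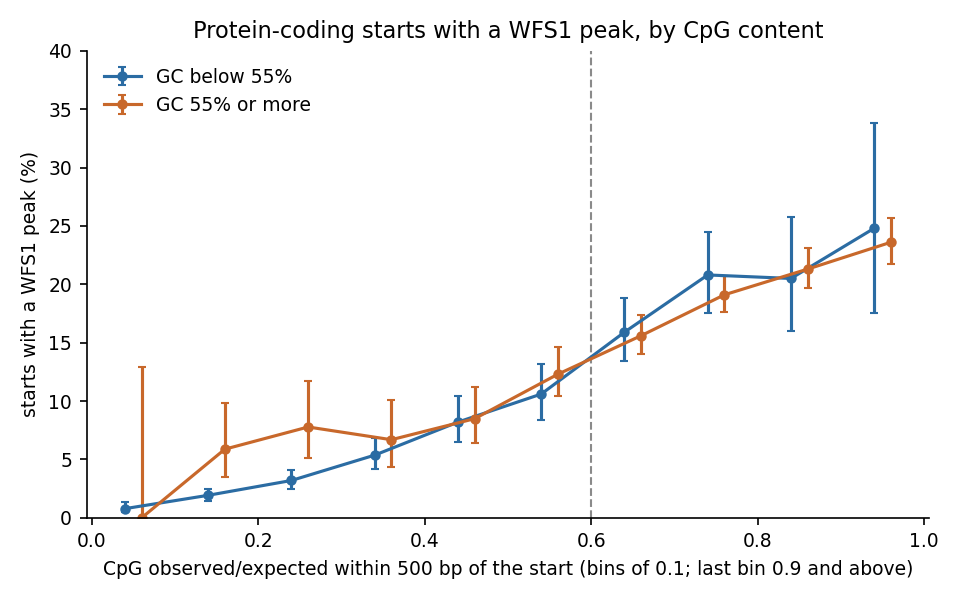
Share of autosomal protein-coding starts with a WFS1 peak centred within 1 kb (vertical axis, %) by the CpG observed/expected ratio within 500 bp of the start (horizontal axis), for starts with GC below 55% and at or above 55%. Each peak counts at its nearest start only. Points are shares, bars are 95% Wilson intervals, and the dashed line is the threshold of 0.6; the shares rise from 0.786% in the lowest bin of low GC starts to over 20% at the highest ratios.

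Which genes carried the peaks was described with 6 lists of genes and 6 gene families, whose breadth of use was not measured here. These were chosen with earlier results of these data known, and how far that choice shaped the shares was not tested. The share of all CpG-poor starts with a peak, 6.55%, is the background for these counts. Actin cytoskeleton, adhesion and membrane genes had a peak at 29 of 67 CpG-poor starts, or 43.3% (32.1 to 55.2). Extracellular matrix genes had one at 19 of 74 CpG-poor starts, or 25.7% (17.1 to 36.7). Cytokines, chemokines and secreted growth factors followed with 13 of 78, or 16.7% (10 to 26.5). Genes of skeletal muscle structure and excitation had a peak at 14 of 85, or 16.5% (10.1 to 25.8). At CpG-rich starts, where the background is 19.9%, the counts were 25 of 48 for actin and adhesion genes (52.1%, 38.3 to 65.5), 8 of 24 for matrix genes (33.3%, 18 to 53.3), 6 of 34 for cytokines (17.6%, 8.35 to 33.5) and 1 of 9 for muscle genes (11.1%, 1.99 to 43.5). Since these lists differ in CpG content, they were also counted at starts low in both GC and CpG, where the background is 3.58%. There the counts were 8 of 27 for actin and adhesion genes (29.6%), 9 of 45 for matrix genes (20%), 7 of 49 for cytokines (14.3%) and 10 of 61 for muscle genes (16.4%).

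The lists of digestive, immune and sensory genes held few peaks. Secreted proteins of liver, pancreas and gut had a peak at 1 of 80 CpG-poor starts (1.25%, 0.221 to 6.75), that of Cela1, a pancreatic elastase. Immune cell surface and signalling genes had one at 1 of 100 (1.00%, 0.177 to 5.45), that of Gzmb. The list does not hold every immune gene, and peaks also lay at CpG-poor starts of Fcgr4, Tlr4, Tigit, Ptpn22, Cd14 and Ly96, named after their values were seen, while Itgb7 was counted among the adhesion genes. Of 1128 olfactory receptors only Olfr432 had a peak, and of 326 vomeronasal receptors only Vmn1r61, both in 1 list only. No peak was listed at 74 starts of cytochrome P450 enzymes of the Cyp2, Cyp3 and Cyp4 families, which allows a share of up to 4.05% by a limit of 3 counts and 4.93% by the Wilson interval. The same held for 64 defensins, which allows up to 4.69% or 5.66%, and for 25 lectin-like receptors of natural killer cells, which allows up to 12% or 13.3%. Most of these starts are low in both GC and CpG. Among such starts, the liver, pancreas and gut list had 1 of 68 (1.47%, 0.260 to 7.87) and the immune list 1 of 89 (1.12%, 0.199 to 6.09), and these intervals include the background of 3.58%. The same holds for the cytochrome P450, defensin and natural killer receptor genes, with upper Wilson limits of 5.13%, 5.66% and 13.3%. The olfactory receptors (upper limit 0.501%) and vomeronasal receptors (1.72%) were below it, though they are part of it and were not matched on GC. Within these starts the share with a peak rose from 0.696% below 40% GC to 5.88% between 50 and 55% GC. The part of GC and of the filter on mapping quality in the low shares of the receptors was not tested. Keratins and keratin-associated proteins, which build epidermis and hair, stood near the background with 8 of 110, or 7.27% (3.73 to 13.7). Their widest peaks lay at Krtap1-5, with 1444 bp, and at Krt80, with 1232 bp, both found in both lists. When the receptors of smell and pheromones were left out of the background, 822 of 11118 CpG-poor starts had a peak, or 7.39% (6.92 to 7.89).

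**Figure D2:**
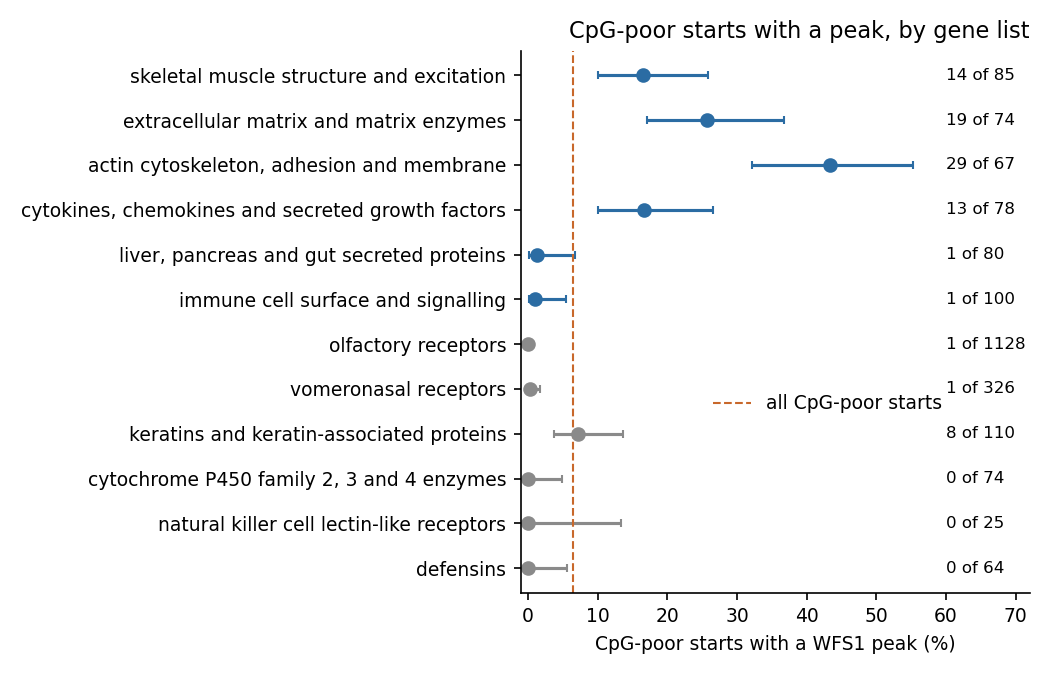
Share of CpG-poor starts with a WFS1 peak (horizontal axis, %) for 6 gene lists (blue) and 6 gene families (grey), with 95% Wilson intervals as bars and the counts at the right. The dashed line is the 6.55% of all CpG-poor starts; actin and adhesion, matrix, cytokine and muscle genes lie to its right, and receptors of smell to its left.

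Actin and adhesion genes had the highest share of the 4 lists of genes in each library. For each of these 4 the share was higher after 30 cycles than after 36, as it was over all CpG-poor starts. Muscle genes had a peak of the 30-cycle list at 12 of 85 starts (14.1%, 8.26 to 23.1) and of the 36-cycle list at 5 of 85 (5.88%, 2.54 to 13). Over all CpG-poor starts these shares were 5.54% and 3.03%. For actin and adhesion genes they were 35.8% and 22.4%, for matrix genes 24.3% and 10.8%, and for cytokines 12.8% and 11.5%. A peak of both lists was found at 217 of all CpG-poor starts, or 1.73% (1.51 to 1.97). It was found at 10 of 67 starts of actin and adhesion genes (14.9%), 5 of 74 of matrix genes (6.76%), 4 of 78 of cytokines (5.13%) and 2 of 85 of muscle genes (2.35%, 0.648 to 8.18). For muscle genes this interval includes the 1.73% of all CpG-poor starts.

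Muscle genes carried 15 peaks, of which those of Chrna1 and Ankrd1 were the only ones of both lists. At Chrna1 the region of 1647 bp held 1377 bp of the 30-cycle list and 1274 bp of the 36-cycle list and was centred 125 bp upstream of the start. Ankrd1 encodes a titin-binding repeat protein of stretched muscle, and its region of 1541 bp held 1420 and 1267 bp, centred 244 bp downstream in a non-coding part of an exon. The remaining 13 were narrow and in 1 list only. After 30 cycles, a peak of 534 bp was called in an intron of Mybph, a myosin-binding protein, and one of 413 bp upstream of Ldb3, a protein of the Z-disc. Musk, the receptor kinase of the neuromuscular synapse, had a 30-cycle peak of 404 bp in a coding exon and a 36-cycle peak of 212 bp. Myf5, a myogenic transcription factor, had a 30-cycle peak of 370 bp centred 751 bp upstream. Outside the naming rule, the list also held peaks of 247 to 366 bp at Chrnd, Actn3, Xirp1, Acta2, Cacng1, Nrap and Ttn.

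Matrix genes carried 24 peaks, 5 of them in both lists. The widest was at Ccn4, a secreted matricellular protein, with 1623 bp called after 30 cycles and only 195 bp after 36 cycles. Tnc, the adhesion-modulating glycoprotein tenascin C, had 824 and 804 bp, centred 154 bp upstream. Ccn2, connective tissue growth factor, had 713 and 279 bp, and Col3a1, a fibrillar collagen chain, had 450 and 322 bp in an intron. Lox, which crosslinks collagen and elastin, was wider after 36 cycles, with 433 against 314 bp. Has2, a hyaluronan synthase, had a peak of 916 bp that was called after 30 cycles only. At the matrix genes, then, most peaks of both lists covered more bases after 30 cycles, with Lox the exception.

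Actin and adhesion genes carried 33 peaks, 11 of them in both lists. S100a10, the partner of annexin A2, had the widest of all 928 peaks, 2307 bp over the start, with 1602 bp after 30 and 2264 bp after 36 cycles. Lmna had 2031 and 664 bp, centred 802 bp upstream. Among other S100 calcium-binding proteins, S100a11 had 588 and 525 bp and S100a4 had 613 and 454 bp, both in introns. Cd44, the hyaluronan receptor, had 916 and 802 bp, and Itgb7, an integrin of lymphocytes, had 991 and 1015 bp, 874 bp downstream in an intron. Vim, the mesenchymal intermediate filament protein, was outside the naming rule and had 584 and 351 bp at either side of its start.

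Cytokine and growth factor genes carried 18 peaks, 4 of them in both lists. Angpt1 had 1434 bp after 30 and 1361 bp after 36 cycles, centred 324 bp upstream. Clcf1, a cytokine of the interleukin-6 family, had 499 and 303 bp, and Gdf15, a stress-induced cytokine, had 552 and 370 bp. Ereg, a ligand of the EGF receptor, had a peak of both lists in a coding exon, with 266 and 420 bp, and a 36-cycle peak of 595 bp centred 914 bp upstream. Angptl4, an inhibitor of lipoprotein lipase, had 703 bp after 30 cycles only. Gzmb had 555 and 301 bp, and Cela1 had 248 bp after 30 cycles only.

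The 10 widest regions of both lists ranged from 1541 to 2307 bp. Beside S100a10, Lmna, Chrna1, Ccn4, Angpt1 and Ankrd1, they lay at Med15, a Mediator subunit, with 1982 and 1644 bp, and at Tgif1, a homeodomain corepressor, with 1175 and 1783 bp centred 917 bp downstream. Ang2 had 1589 and 1520 bp, and Dusp6, a phosphatase of ERK kinases, had 1460 and 292 bp. In 6 of these 10 regions the centre was upstream of the start. At Med15, Ang2, Chrna1, Angpt1 and Ankrd1 both lists covered much of the region, whereas Ccn4, Dusp6 and Lmna were mostly covered after 30 cycles.

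**Figure D3:**
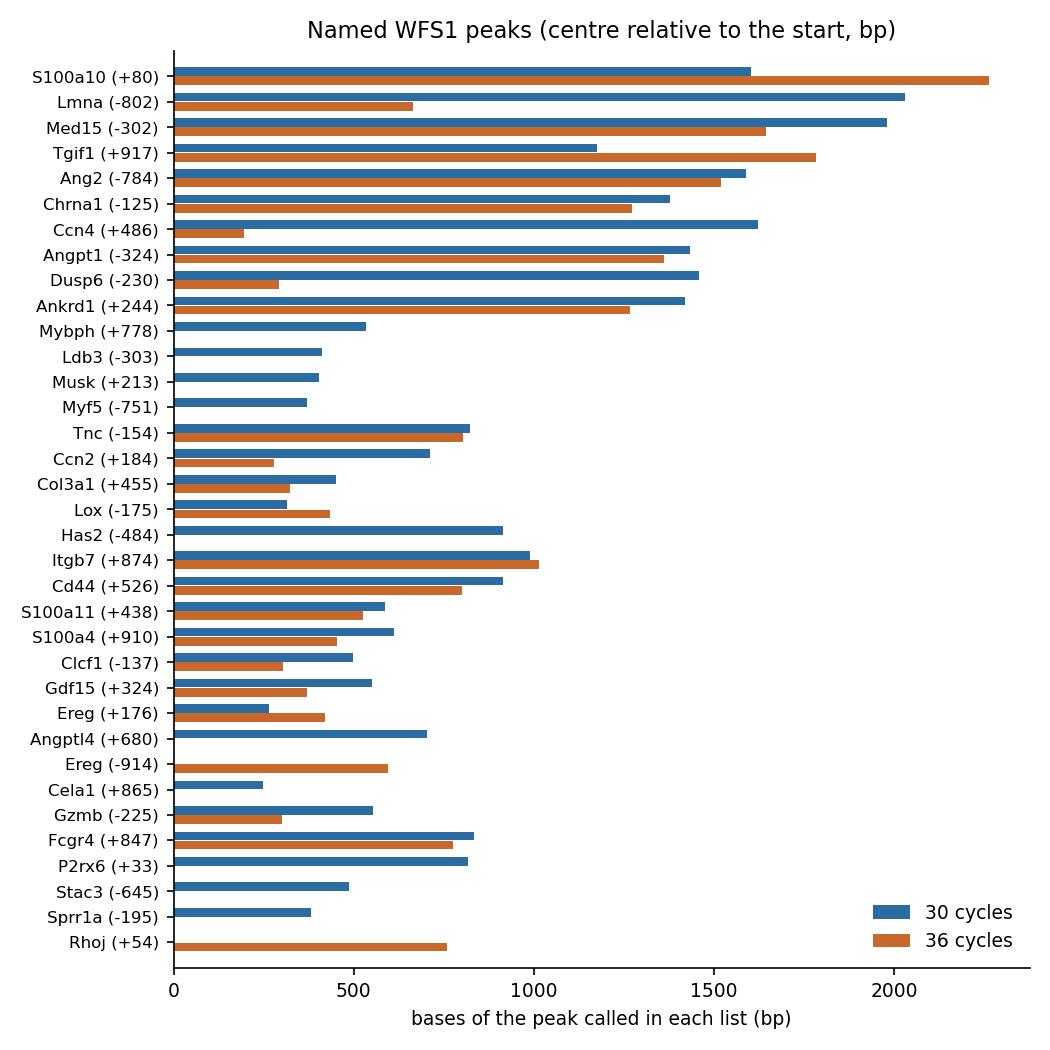
Bases called after 30 cycles (blue) and after 36 cycles (orange) within each named peak (horizontal axis, bp), with the centre relative to the start in bp beside the gene (negative is upstream). S100a10 and Tgif1 were covered more after 36 cycles, Lmna, Ccn4 and Dusp6 more after 30 cycles, and the plotted peaks of Mybph, Ldb3, Musk and Myf5 were called after 30 cycles only.

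Of the 928 peaks, 222 were called in both lists (23.9%, 21.3 to 26.8), 524 after 30 cycles only (56.5%) and 182 after 36 cycles only (19.6%). The share at CpG-rich starts was 20.7%, and the interval of the difference, 3.22 points (-0.0223 to 6.57), just included 0. Under each of the 5 other settings tried it lay above 0, with differences of 3.24 points (0.146 to 6.46) to 7.42 points (2.68 to 12.6). The last value required both low GC and low CpG, and starts low in only 1 of them then counted as CpG-rich. The share of 23.9% was lower than that of peaks over 10 kb from a start, 38.6% (difference -14.6 points, -17.4 to -11.7). Among the classes, it was 28.2% at starts low in both GC and CpG and 21.2% at starts low in GC alone, a difference of 7.08 points (0.578 to 13.5). Peaks of both lists had a median width of 586 bp (553 to 646), against 332 bp after 30 cycles only and 260 bp after 36 cycles only. The joining partly sets this difference, since such a region spans the peaks of each list and a wide peak overlaps another more easily. In 168 of the 222, more bases were called after 30 cycles. Over all 928 the median width was 360 bp (345 to 373), against 338 bp (330 to 346) at CpG-rich starts. The range was from 195 to 2307 bp.

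Peaks at CpG-poor starts were centred on the start itself more often than those at CpG-rich starts. Within 100 bp of the start lay the centres of 150 (16.2%, 13.9 to 18.7), against 11.1% at CpG-rich starts, a difference of 5.09 points (2.41 to 7.94). They were centred upstream in 350 cases (37.7%), less often than at CpG-rich starts (43.1%, difference -5.39 points, -9.19 to -1.53). The median centre was 142 bp downstream (106 to 178). The fullest bin, from 200 to 300 bp downstream, held 105 peaks (11.3%). At CpG-rich starts the centres formed a maximum on either side, with 7.40% between 400 and 300 bp upstream and 8.62% between 200 and 300 bp downstream, whereas between 500 and 300 bp upstream the CpG-poor starts held 27 and 41 peaks in their bins. By position, 271 centres (29.2%) were in introns, 234 (25.2%) in non-coding parts of exons and 71 (7.65%) in coding exons. For 332 peaks (35.8%) another annotated transcript start was nearer than the gene's 5′ end, and for 91 (9.81%) that nearer start was CpG-rich. Around their own centres, 784 peaks (84.5%) were also CpG-poor by the same measures. The rule partly sets this share, since these windows overlap those of the starts. It was 31.2% for peaks at CpG-rich starts and 98.9% for peaks over 10 kb away.

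**Figure D4:**
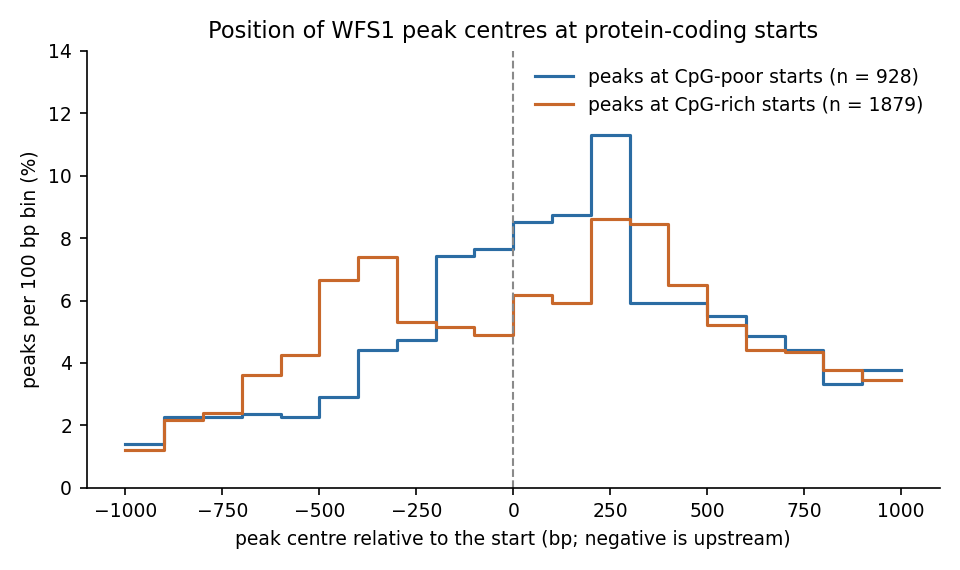
Position of peak centres relative to the start (horizontal axis, bp, negative is upstream) as the share of peaks per 100 bp bin (vertical axis, %), for 928 peaks at CpG-poor and 1879 at CpG-rich starts. The CpG-poor curve has its highest bin at 200 to 300 bp downstream (11.3%), and the CpG-rich curve has a further maximum upstream (7.40%).

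Neighbouring peaks were about as frequent as at CpG-rich starts, within counting error (difference 1.03 points, -2.89 to 4.96). Another WFS1 peak lay within 10 kb of 461 of the 928 (49.7%, 46.5 to 52.9), against 48.6% at CpG-rich starts and 65% for peaks 1 to 10 kb from a start. The classes differed, with 62.1% at starts low in CpG alone, 52.8% at starts low in both and 36.8% at starts low in GC alone. The last differed from starts low in both by 16.0 points (8.54 to 23.2).

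Sequence motifs in the central 200 bp were compared with 117480 windows of 200 bp within 1 kb of CpG-poor starts without a peak, and with the other peak sets. A match is a run of letters and not a measured site of a factor. The AP-1 motif was in 60 of the 928 peaks (6.47%, 5.06 to 8.23), against 3.03% (2.94 to 3.13) of the windows. Its share was above that of peaks at CpG-rich starts, 3.35% (difference 3.11 points, 1.43 to 5.02), and below that of peaks over 10 kb away, 21.1% (difference -14.6 points, -16.1 to -12.7). The E-box was in 121 (13%, 11 to 15.4), against 9.90% of the windows, 9.74% at CpG-rich starts and 19.3% over 10 kb away. The RUNX motif was in 142 (15.3%, 13.1 to 17.8), against 13.4% of the windows, 9.05% at CpG-rich starts and 27.5% over 10 kb away. The TEAD motif was in 114 (12.3%, 10.3 to 14.6), against 10.4%, 7.88% and 16.9%. The shares of the RUNX and TEAD motifs were within counting error of the windows. In windows 2 kb to either side of the peaks, the shares were 4.31%, 8.03%, 15.4% and 8.78% in the same order. For all 4 motifs the CpG-poor starts stood between the CpG-rich starts and the peaks far from starts. The median GC content of the peak centres followed the same order, with 61.5% at CpG-rich starts, 54.5% at CpG-poor starts and 46.5% over 10 kb away. Its part in the order of the motifs was not tested, and windows without a peak were counted at CpG-poor starts only.

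The classes of CpG-poor starts split along the same line. Peaks at starts low in both GC and CpG held the AP-1 motif in 9.32% (6.71 to 12.8), the E-box in 16.1% (12.6 to 20.3), the RUNX motif in 22.0% (18 to 26.6) and the TEAD motif in 16.7% (13.1 to 20.9). The windows of that class without a peak held them in 3.23%, 9.34%, 14% and 10.6%. Peaks at starts low in GC alone held them in 1.84%, 7.98%, 9.20% and 7.98%, near the shares of the CpG-rich starts and of their own windows (2.21%, 7.82%, 10.8% and 9.08%). At starts low in CpG alone the shares were 8.47%, 15.3%, 13.7% and 11.7%, of which only the AP-1 motif was above its windows beyond counting error (2.75%, with 13.5%, 12.4% and 10.4% for the others). The share with the TEAD motif at starts low in both was within counting error of that over 10 kb away (difference -0.238 points, -3.81 to 4.04). The AP-1 motif was also more frequent in peaks of both lists, 11.3%, than after 30 cycles only, 4.96% (difference 6.30 points, 2.15 to 11.4). So was the RUNX motif, with 22.1% and 12.2% (difference 9.86 points, 4.02 to 16.3).

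The motifs searched that contain CpG were more frequent in these peaks than in the windows without a peak. GGGCGG, the GC box bound by Sp factors, was in 215 peaks (23.2%, 20.6 to 26.0), below the 34% at CpG-rich starts and above the 7.95% of windows without a peak and the 4.43% over 10 kb away. At starts low in both GC and CpG it was in 15.3% (11.9 to 19.4) of the peaks and 4.47% of the windows. CCGGAAG, bound by ETS factors, was in 51 (5.50%, 4.20 to 7.15), against 5.53% at CpG-rich starts and 1.77% of the windows. TGACGTCA, the cAMP response element, was in 13 (1.40%, 0.820 to 2.38), against 0.238% of the windows. TGCGGT, the RUNX sequence with a CpG, was in 60 (6.47%), against 2.55% of the windows and 11.1% at CpG-rich starts. Conversely, the TATA box was rarer in the peaks (54, 5.82%, 4.49 to 7.52) than in the windows (13.2%), as was the CCAAT box (170, 18.3%, 16.0 to 20.9, against 25.4%). The median GC content was 54.5% in the peaks and 46.5% in the windows, and its part in these differences was not tested. The CArG box was in 5 peaks, the widest at Rhoj, a small GTPase, with 759 bp after 36 cycles only, and the MEF2 site in 2, the wider at Angpt1.

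The AP-1 motif and the E-box occurred together in 10 peaks. The 5 widest were at Chrna1, Fcgr4, P2rx6, Stac3 and Sprr1a. Fcgr4 had 833 and 776 bp, centred 847 bp downstream in an intron. P2rx6, an ATP-gated channel, had 817 bp at its start, Stac3 had 486 bp centred 645 bp upstream, and Sprr1a had 381 bp centred 195 bp upstream, all after 30 cycles only. In the sequences printed above, Chrna1 holds the E-box at 2 places and Sprr1a holds the AP-1 motif at 2 places. At least 1 of the AP-1, E-box and RUNX motifs was in 276 of the 928 peaks (29.7%, 26.9 to 32.8), against 20.3% (18.5 to 22.2) at CpG-rich starts and 53.0% (52.2 to 53.8) over 10 kb away.

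**Figure D5:**
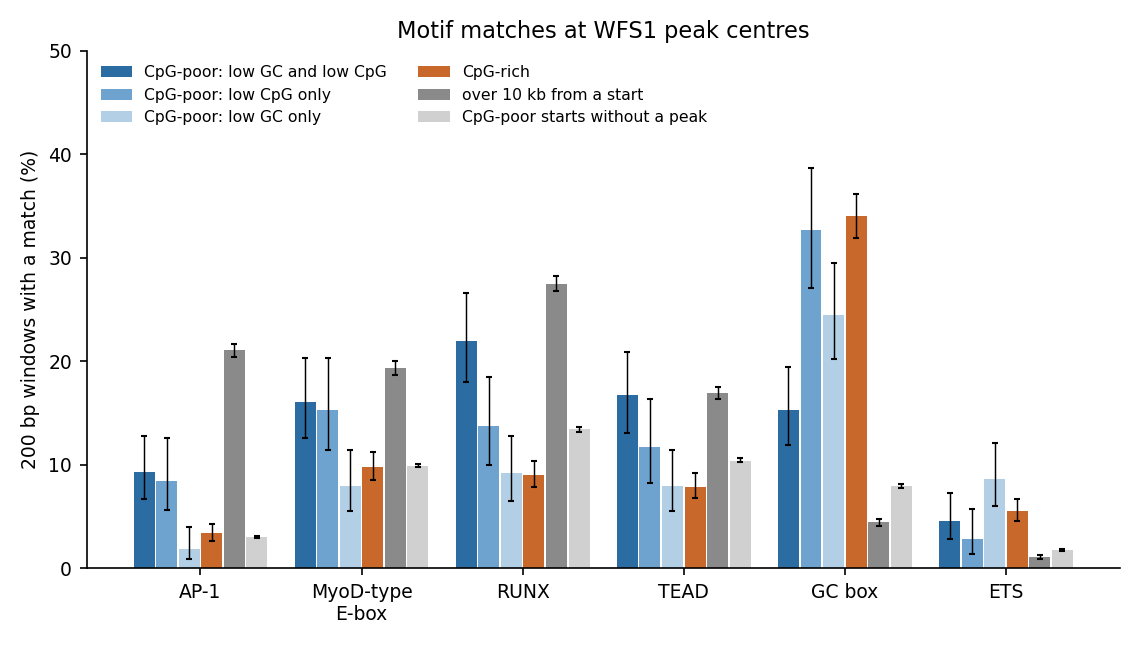
Share of 200 bp windows with a motif match (vertical axis, %) for the 3 classes of CpG-poor starts with a peak (blue shades), CpG-rich starts, peaks over 10 kb from a start, and windows at CpG-poor starts without a peak; bars are shares and lines 95% Wilson intervals. At starts low in both GC and CpG, the AP-1 share is 9.32% against 3.03% in the plotted windows and 21.1% in peaks over 10 kb away. Windows of that class alone, with 3.23%, are not plotted.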

How the data were processed

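Reads had been aligned by the authors to GRCm38 using NextGenMap, filtered on mapping quality using samtools, and passed to MACS2 library by library. The control used in peak calling is not given in the sources used here. The deposited values are the coordinates of the peaks, without a score, signal or count. Of 8 libraries, 6 (inputs, and FLAG Tag WFS1 in WFS1 knockout cells) were not used here.

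The 30- and 36-cycle lists were joined where they overlapped, which gave the same regions as bedtools merge. A region was called in both lists when it overlapped a peak of each by at least 1 bp. Starts were the 5′ ends of protein-coding genes of GENCODE release 21 (Ensembl 96), an earlier release than that of the study, and 20807 were autosomal. Each peak was counted at its nearest start only, so another start within 1 kb of the same peak did not count it. A second gene start lay within 1 kb of 70 of the 928 peaks. GC, CpG and motifs were read from the GRCm38 sequence, with motifs searched on both strands. Shares have 95% Wilson intervals, differences Newcombe intervals and medians order-statistic intervals. The 12 motifs, 6 gene lists and 6 families, written from knowledge of gene function, and the members were chosen with earlier results of these data known. Motif matches may overlap, and TGACGTCA and the E-box read the same on both strands. Named were the 10 widest regions of both lists, up to 6 per gene list (those of both lists first, then by width), the 5 widest with both the AP-1 motif and the E-box, the 3 starts on either side of each threshold, and the widest region with each of 6 motifs. Names outside this rule were picked once their values had been seen. Assignment, classes and motif search were tested on simulated data (python 3.11.15, numpy 2.4.6, scipy 1.17.1, bedtools 2.31.1). A member of the muscle list and a sequence are not reported here.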

Additional observations from a re-analysis of the deposited data

How the results depend on the processing

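No paired analysis was possible because no replicate numbers link several libraries of a condition, and no test was run. The differences rerun were those from CpG-rich starts in starts with a peak, peaks of both lists and the AP-1 motif. The difference of the AP-1 motif from peaks over 10 kb away was also rerun. Their signs stayed the same under the alternatives run. The other differences, such as those in position, neighbours and classes, were not rerun. The cause of a shift was not tested unless the setting itself gives it. With the 30-cycle list alone, 5.54% of CpG-poor starts had a peak, -10.8 points from CpG-rich starts, and 41.9% of the peaks had a neighbour within 10 kb. With the 36-cycle list alone, the values were 3.03% and -5.86 points, the AP-1 motif was in 8.47% and the RUNX motif in 18.8% of the peaks, the AP-1 motif was -12.5 points from peaks over 10 kb away, and 42.1% were centred upstream. These lists hold fewer peaks by construction.

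Where both low GC and low CpG were required, 3.58% of starts had a peak, 28.2% of peaks were in both lists (7.42 points above CpG-rich starts, 2.68 to 12.6), 41.0% were upstream, and the AP-1 motif, the E-box and the RUNX motif were in 9.32%, 16.1% and 22.0%, with the AP-1 motif 5.65 points above CpG-rich starts and -11.7 points from peaks over 10 kb away. With 250 bp to either side of the start, 5.84% of CpG-poor starts had a peak. Within 500 bp of the start the values were 4.82% and -9.34 points. With every protein-coding transcript start they were 3.78% and -6.71 points, the E-box was in 15.7% and 47.5% of peaks were upstream.

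In the central 100 bp, the AP-1 motif, the E-box and the RUNX motif were in 3.45%, 7.0% and 8.30% of the peaks, with the AP-1 motif -7.65 points from peaks over 10 kb away. In whole peaks they were in 12.9%, 25.4% and 27.8%, with the AP-1 motif 6.54 points above CpG-rich starts and -23.5 points from peaks over 10 kb away. In peaks of both lists only, the AP-1 motif was in 11.3% and the RUNX motif in 22.1%, with the AP-1 motif 8.18 points above CpG-rich starts and -11.6 points from peaks over 10 kb away. With peaks up to 500 bp apart joined, 37.6% had a neighbour within 10 kb. Without this joining, 78.0% of the 928 peaks had one within 50 kb. The gene lists in each list of peaks alone were an alternative chosen after seeing the data. The depth of the libraries is unknown and the lists give no height, so a start without a peak cannot be told apart from one whose signal was under the threshold of the caller.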

Other observations

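A few CpG-poor starts carried several peaks: 728 had 1 peak, 88 had 2 and 8 had 3. The 8 were Adamts6, Btbd19, Hoxa9, Marcks, Pip4p2, Snrnp35, Tpm2 and Zfp62, named after their values were seen. At Tpm2, which encodes a tropomyosin, a 376 bp peak of both lists lay 978 bp downstream in a coding exon, and 30-cycle peaks of 252 and 242 bp lay 314 bp downstream and 192 bp upstream. At Hoxa9, a homeobox gene, a 36-cycle peak of 580 bp and 30-cycle peaks of 332 and 323 bp lay near one another, and each had 13 other WFS1 peaks within 10 kb, a count that includes its neighbours at the same start.

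Chromosomes differed in the share of CpG-poor starts with a peak, from 3.34% (2.55 to 4.38) on chromosome 7 to 11.8% (9.05 to 15.3) on chromosome 15. CpG-rich starts had their lowest and highest shares on the same chromosomes, 12.7% and 31.9%. Without olfactory and vomeronasal receptors the share was 4.47% on chromosome 7 and 4.40% on chromosome 9, which was then the lowest, so that the lowest chromosome is the same in both classes only with the receptors included.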
